A study of Mus musculus with 3 samples.

Results

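The 32 genes described here encode proteins that sense DNA damage, halt the cell cycle or repair DNA. They were listed by symbol and not by a cut-off on measured values, though earlier results of these data were known. All 32 were found among the 56980 genes listed. Single-cell RNA sequencing (10x Genomics) was carried out on spleen suspensions of wild-type mice in 3 libraries, 1 per group. The control mice were not irradiated, the IR mice received 8.5 Gy with a "colvent control", and the IR_HSO mice received 8.5 Gy with HSO, which the series title gives as hemp seed oil. The term "colvent control" was read as a vehicle control, which is uncertain. The strain, the age, the time after irradiation, the HSO dose and the number of mice per library are not given in the sources used here. The study asked whether the oil protects splenic lymphocytes from radiation.

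A double-strand break is held by the complex of Rad50 and Nbn, which activates the kinase Atm. Atm marks the histone H2ax, Mdc1 binds the mark, the ubiquitin ligases Rnf8 and Rnf168 extend it, and Trp53bp1 is recruited. The ends are then joined directly by the Ku, DNA-PK and ligase IV machinery, or copied from the sister chromatid by homologous recombination, which works only after replication has begun. Lymphocytes are among the most radiosensitive cells of the body. They also make and join breaks themselves when they assemble and switch antigen receptor genes.

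E2F factors drive many genes of DNA replication, and their binding word was searched in the promoters, because several members differed with the cell cycle. RefSeq promoters of build GRCm38.p6 matched 26 of the 32 members. H2ax, Nbn, Xpc, Fancd2, Prkdc and Rad50 had no entry. The words TTTCCCGC, TTTCGCGC, TTTGCCGC and TTTGGCGC were searched on both strands in the 250 bases before the start. Brca2, Chek2, Mdc1 and Xrcc6 held one of them, or 15.4% of the matched members, against 2.16% of 27025 genes with a promoter in the same table. The 4 windows of 120 bases are shown so that promoters with the word can be set beside the expression of their genes, and capitals mark the word.
Brca2, chr5:150522397-150522516, plus strand: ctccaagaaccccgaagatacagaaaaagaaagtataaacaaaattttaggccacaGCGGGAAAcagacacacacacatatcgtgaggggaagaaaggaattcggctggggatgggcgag
Chek2, chr5:110839775-110839894, plus strand: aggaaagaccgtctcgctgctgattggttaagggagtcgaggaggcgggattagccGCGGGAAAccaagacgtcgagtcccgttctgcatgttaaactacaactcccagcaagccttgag
Mdc1, chr17:35841378-35841497, plus strand: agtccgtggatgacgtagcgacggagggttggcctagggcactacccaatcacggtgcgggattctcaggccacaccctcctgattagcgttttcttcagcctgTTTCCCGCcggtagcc
Xrcc6, chr15:82016249-82016368, plus strand: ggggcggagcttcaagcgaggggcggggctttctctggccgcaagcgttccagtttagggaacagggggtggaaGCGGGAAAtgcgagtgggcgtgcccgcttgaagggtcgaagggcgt

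Brca2 and Chek2 had higher levels in T cells with a cycling transcript in at least some libraries, whereas Mdc1 and Xrcc6 were past 1.5-fold in none. Chek1, Brca1 and Lig1 were higher in all 3 libraries, and their searched promoters held none of these letters. The CCAAT box was in 42.3% of the matched members and in 37.5% of all genes of the table. The word TTTGAA, the core of the cell cycle homology region, was in Rnf8 alone among the members, and in 18.3% of all genes. A match is a description of letters and not a bound site.

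Cells with at least 500 unique molecular identifiers (UMIs, counted transcript molecules) and under 10% mitochondrial UMIs numbered 9163 in control, 12866 in IR and 10608 in IR_HSO. These limits removed 3.75%, 4.76% and 16.5% of barcodes. Between 34 and 54 barcodes were shared by any pair of libraries. T cells had at least 2 UMIs of Cd3d, Cd3e and Cd3g together, NK cells had a UMI of Ncr1 and none of Cd3, and B cells had at least 2 UMIs of Cd79a and Cd79b. T and NK cells were split by a UMI of Mki67 or Top2a, which are transcribed in dividing cells, and cells with one are called cycling-marked here. The 3 libraries held 3393, 7091 and 6251 unmarked and 338, 1121 and 731 cycling-marked T cells, in the order control, IR, IR_HSO, which holds throughout. They held 309, 1361 and 954 unmarked and 28, 170 and 92 cycling-marked NK cells, and 4719, 444 and 321 B cells. The B gate overlaps the others. It shared 541, 138 and 93 cells with the T gate and 56, 25 and 9 with the NK gate. Levels are UMIs of a gene per 1000000 UMIs of the gate (CPM). They are not scaled to gene length, so levels are compared between cells for the same gene and never between genes. Ratios carry exact conditional 95% intervals. With 1 library per group no test was possible, and the intervals cover counting error only, not the spread between mice. A gene was called higher or lower at 1.5-fold, and entered a comparison where at least 20 UMIs were expected in the smaller gate. Within a gate, fewer cells that express a gene and less RNA per cell cannot be told apart.

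All 8 T cell markers were found in the T cell gates and all 7 NK cell markers in the NK cell gates. They summed to 5198, 5156 and 4126 CPM in unmarked T cells and to 16509, 17548 and 12123 CPM in unmarked NK cells. The lists include the gate genes Cd3d, Cd3e, Cd3g and Ncr1, so part of this was fixed by the gates. All markers of both lists were also found in the B gates. There the T cell markers summed to 821, 711 and 524 CPM and the NK cell markers to 256, 420 and 294 CPM. The gates also held RNA of other cell types, to different degrees. Of the cycling-marked T cells of control, 142 of 338 had a UMI of Cd79a or Cd79b, and the summed level of 5 erythroid markers there was 1907 CPM, against 0.531 and 0.838 CPM in IR and IR_HSO. The 7 B cell markers summed to 645, 61.4 and 39.7 CPM in unmarked T cells. In unmarked NK cells they summed to 1386, 80.7 and 33.2 CPM. The 5 plasma cell markers summed to 163, 1497 and 1179 CPM in unmarked T cells. In cycling-marked T cells they summed to 2617, 3107 and 3124 CPM. The 7 exocrine pancreas markers summed to 0.513, 1999 and 729 CPM in unmarked T cells, with 1 of 7 found in control and all 7 in IR and IR_HSO. The part of these transcripts in the results was not tested, except by the narrower gates given with them. Immunoglobulin genes took 4.26%, 53.8% and 53.1% of the UMIs of the B gate.

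In unmarked T cells the members were at nearly the same summed level in the 3 libraries, at 765, 779 and 795 CPM. In cycling-marked T cells the sum was 1077, 1342 and 1035 CPM, highest in IR and close in control and IR_HSO. The control value includes the 142 of 338 cells with a UMI of Cd79a or Cd79b, and the part of these cells in it was not tested. In unmarked NK cells it was 821, 774 and 747 CPM, and in cycling-marked NK cells 1148, 1169 and 1131 CPM. The 95% counting interval of the control NK value, on 28 cells, ran from 991 to 1322 CPM. Every marked gate thus lay above its unmarked counterpart.

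**Figure D1:**
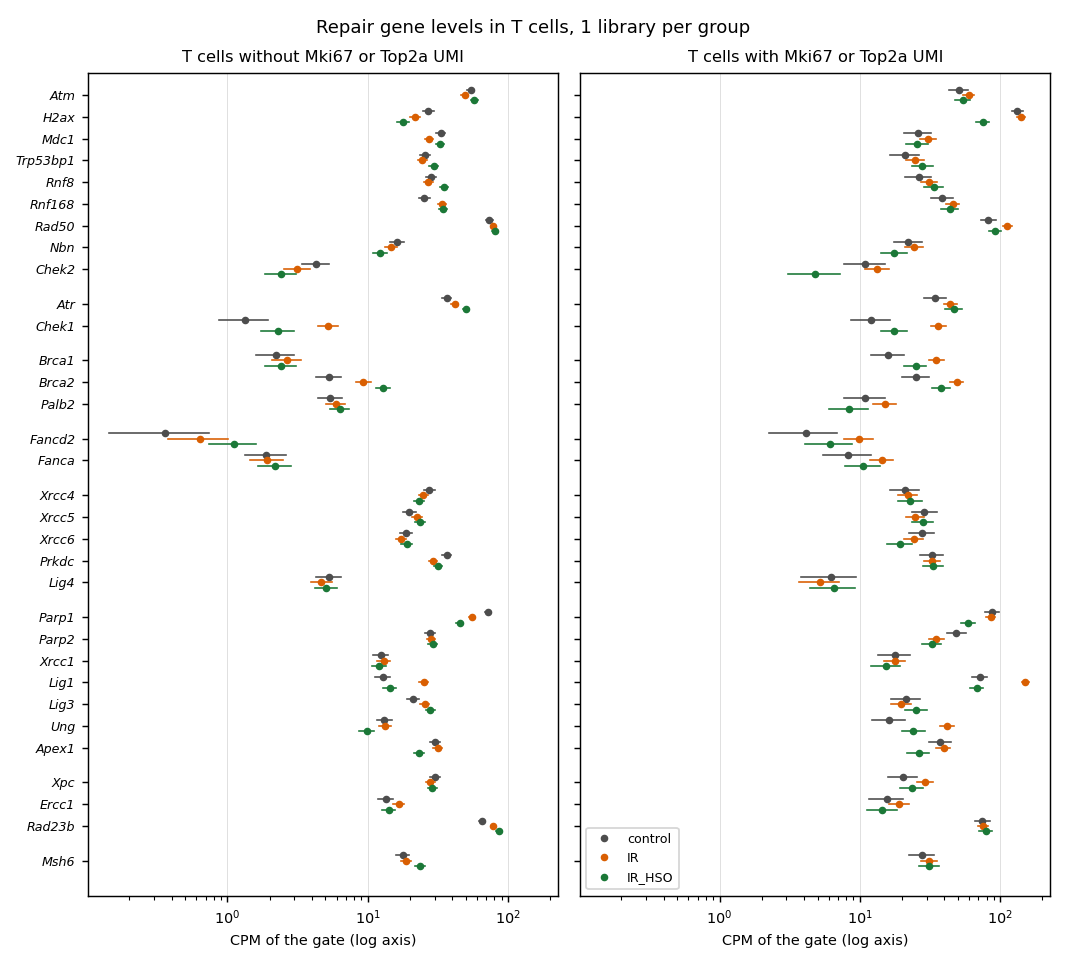
Level of each of the 32 genes in unmarked (left) and cycling-marked (right) T cells, in CPM on a log axis, grouped from top to bottom by repair pathway. Points are the single library of each group and bars are exact 95% Poisson intervals. Most genes lie on or near each other across libraries on the left, while Chek1, Brca2 and Lig1 stand apart there and H2ax, Chek1, Lig1 and Ung on the right.

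H2ax, Chek1, Brca1, Brca2 and Lig1 were at least 1.5-fold higher in cycling-marked than in unmarked T cells in all 3 libraries. In control 10 of 29 members past the floor were higher and none was lower, where 13.7% of all genes were higher and 5.47% lower. In IR 13 of 32 were higher and none lower, beside 7.67% and 4.22% of all genes. In IR_HSO 7 of 30 were higher and none lower, beside 5.63% and 3.25%. The median log2 ratio of the members was 0.30, 0.44 and 0.23 in the 3 libraries, and that of all genes was 0.05, -0.04 and -0.05.

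H2ax encodes the histone variant that carries the break mark. It was at 27.0, 21.6 and 17.8 CPM in unmarked and at 133, 141 and 75.2 CPM in cycling-marked T cells. The marked cells were 4.91-fold (4.32 to 5.58), 6.53-fold (5.90 to 7.22) and 4.22-fold (3.66 to 4.85) higher. The lowest marked value lay far above the highest unmarked one.

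Chek1 encodes the kinase that acts below Atr when replication stalls. Unmarked T cells had 1.33, 5.21 and 2.29 CPM, and marked ones 12.1, 36.3 and 17.6 CPM. IR was highest in both sets of cells. The split was 9.06-fold in control (5.41 to 15.4), 6.95-fold in IR (5.67 to 8.56) and 7.67-fold in IR_HSO (5.42 to 10.9), with overlapping intervals.

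Brca1 and Brca2 act in homologous recombination. Brca1 was at 2.20, 2.66 and 2.41 CPM in unmarked and at 15.9, 35.1 and 24.9 CPM in marked T cells. Its split was 7.21-fold, 13.2-fold and 10.3-fold. Brca2 had 5.28, 9.29 and 12.9 CPM in unmarked and 25.0, 48.9 and 37.9 CPM in marked T cells, and its split was smallest in IR_HSO at 2.94-fold (2.44 to 3.54), against 4.74-fold (3.51 to 6.38) and 5.26-fold (4.48 to 6.19). Brca2 in unmarked T cells was thus lowest in control and highest in IR_HSO, while in marked cells it was highest in IR. Palb2, which links both proteins, was 2.02-fold and 2.56-fold higher in marked cells of control and IR, and 1.32-fold (0.912 to 1.88) in IR_HSO, short of the call.

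Lig1 encodes the ligase that seals Okazaki fragments and long base excision patches. It was at 12.8, 25.1 and 14.3 CPM in unmarked and at 71.6, 151 and 67.9 CPM in marked T cells. The IR library was highest in both. Marked cells were 5.58-fold, 6.04-fold and 4.74-fold higher. By contrast Lig3, the partner of Xrcc1, and Lig4 of end joining were not past 1.5-fold in any library in which they passed the floor.

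The Fanconi members Fancd2 and Fanca, which act at DNA crosslinks, had few UMIs. Fancd2 had 7, 18 and 28 UMIs in unmarked and 14, 74 and 29 in marked T cells, and passed the floor in IR alone, where the split was 15.4-fold (9.10 to 27.4), the largest of any member there. Fanca was 7.49-fold (5.35 to 10.6) higher in IR and 4.81-fold (3.22 to 7.19) in IR_HSO, and was under the floor in control. Chek2, the kinase that acts below Atm, was 2.56-fold and 4.21-fold higher in control and IR and under the floor in IR_HSO. Ung, which removes uracil from DNA, was 3.13-fold (2.68 to 3.64) and 2.46-fold (1.95 to 3.08) higher in IR and IR_HSO, and 1.23-fold (0.905 to 1.66) in control, short of the call.

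Past 1.5-fold in fewer libraries were Msh6 of mismatch repair in control and IR, Rnf168 and Parp2 in control, and Nbn and Parp1 in IR. In total 15 members were higher in at least 1 library. Another 16 passed the floor in all 3 libraries and were past 1.5-fold in none. These included Atm, Mdc1, Trp53bp1, Rnf8 and Rad50 of break sensing and Atr of the replication stress checkpoint. Among them were also Xrcc4, Xrcc5, Xrcc6 and Prkdc of end joining, and Xpc, Ercc1 and Rad23b of nucleotide excision repair. Atm, for one, was at 54.2, 49.0 and 57.6 CPM in unmarked and 50.6, 59.5 and 54.3 CPM in marked T cells, with ratios on both sides of 1. Rad50 was at 73.6, 78.5 and 80.5 CPM in unmarked and 82.4, 113 and 92.2 CPM in marked T cells. Rad23b, which helps Xpc find damage, was at 65.3, 78.4 and 85.7 CPM and at 74.8, 75.8 and 78.6 CPM. Atr, the kinase of replication stress, was at 36.6, 41.8 and 50.2 CPM and at 34.5, 44.2 and 46.5 CPM. Rad50 in IR, at 1.43-fold (1.32 to 1.55) higher in marked cells, was the farthest from 1 among Atm, Rad50, Rad23b and Atr. The lowest ratio was that of Xpc in control, which was at 30.1 CPM in unmarked and 20.3 CPM in marked cells, or 1.48-fold lower (1.15 to 1.93), just short of the call.

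**Figure D2:**
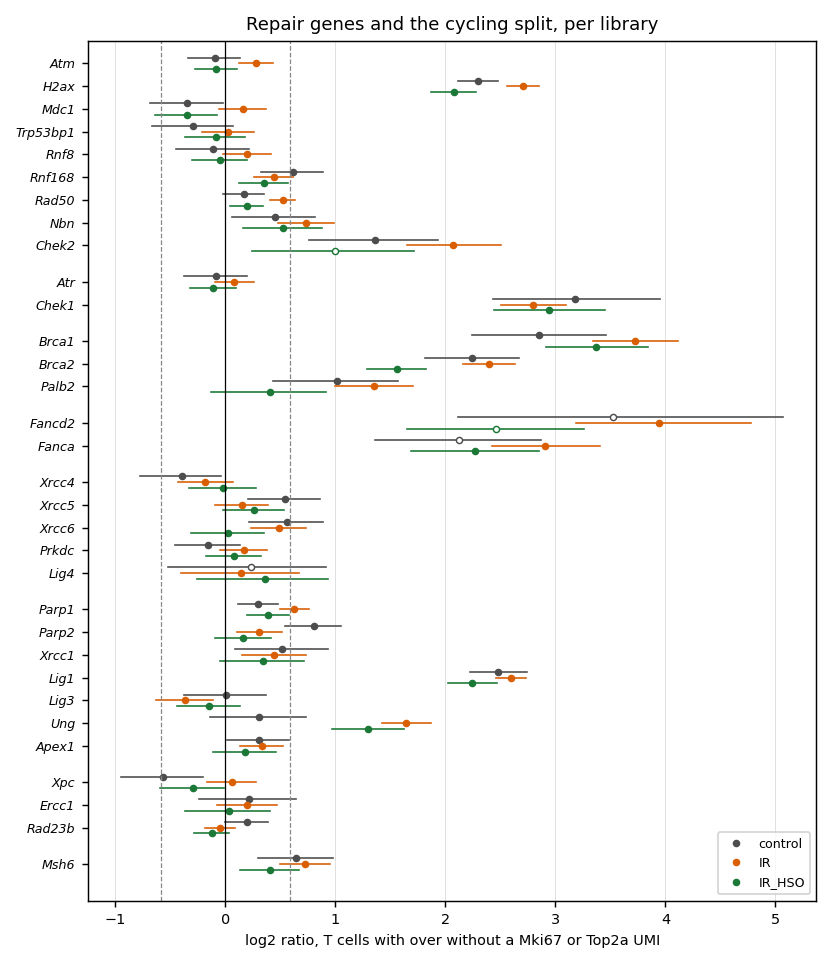
log2 ratio of the level in cycling-marked over unmarked T cells within each library, with exact conditional 95% intervals. Open circles are under the floor of 20 expected UMIs, dashed lines mark 1.5-fold, and genes are grouped by pathway. H2ax, Chek1, Brca1, Brca2 and Lig1 lie right of the upper dashed line in all 3 libraries.

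The control values of this split were lower once mixed or large cells were left out. These are cells with UMIs of both Cd3 and Cd79 genes and cells over 3 times the median UMI number of the gate, which were left out together, so their parts were not told apart. This left 190 marked and 2212 unmarked control T cells. The summed level of the 13 cycling markers in the marked control cells was 1919 CPM before and 725 CPM after. In IR it was 3079 and 3057 CPM. The 13 include Mki67 and Top2a, by which the cells were marked. Only 2 of 21 control members past the floor were then higher, Parp2 and Lig1, and Xpc was lower, beside 7.84% and 2.01% of all genes. H2ax had 37.1 CPM in these marked and 26.0 CPM in these unmarked control cells, or 1.43-fold. Lig1 had 30.6 and 12.0 CPM, or 2.56-fold. In IR 12 of 32 members were higher, beside 7.23% of all genes, and in IR_HSO 6 of 28, beside 4.47%, with H2ax, Chek1, Brca1, Brca2, Lig1 and Ung in both sets. Among control T cells with Cd4 and without Cd8 UMIs 3 of 21 members were higher, H2ax, Parp2 and Lig1, beside 12.6% of all genes.

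Between IR and control, the unmarked T cells showed few differences among the repair genes. Of 31 members past the floor 3 were higher in IR, Chek1, Brca2 and Lig1, and none was lower. Of all genes past the floor 15.7% were higher and 6.4% lower. Their median log2 ratio was 0.02, and that of all genes was 0.12. Chek1 was 3.91-fold higher (2.57 to 6.19), on 147 against 26 UMIs. Lig1 was 1.96-fold higher (1.69 to 2.27) and Brca2 1.76-fold (1.40 to 2.23). The 9 break sensing members ran from 0.742-fold for Chek2 to 1.34-fold for Rnf168. Parp1, which binds strand breaks and adds chains of ADP-ribose, was at 71.7, 55.3 and 45.3 CPM, and Prkdc, the catalytic subunit of DNA-PK, at 36.5, 29.1 and 31.6 CPM. Both intervals lay below 1, at 0.717 to 0.829 and 0.721 to 0.883, and within 1.5-fold. Without mixed or large cells Parp1 had 56.3 CPM in control and 54.6 CPM in IR. The make-up of the gate also differed. Cells with Cd8 and without Cd4 UMIs were 1206 of 3393 in control and 593 of 7091 in IR. Those with Cd4 and without Cd8 UMIs were 1182 and 2383. Among the Cd8 cells Brca2 and Lig1 of 25 members were higher and none was lower, beside 12.0% and 3.84% of all genes. Among the Cd4 cells Chek1, Brca2 and Lig1 of 29 were higher and none lower, beside 12.9% and 4.97%. The cycling markers other than Mki67 and Top2a summed to 147, 227 and 166 CPM in unmarked T cells of control, IR and IR_HSO. The median UMI number of these cells was 5397, 3427 and 3469. An unmarked cell is thus not shown to be outside division. The parts of the make-up, of division and of depth in the ratios were not tested.

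For reference, levels of 2 p53 targets were read in the same cells. Cdkn1a, the p53 target that encodes p21, was at 1.23 CPM in control and 220 CPM in IR. Bax, a pro-apoptotic p53 target, was at 120 and 510 CPM. Of 7 repair genes described as p53-responsive, Polk alone was past 1.5-fold, at 14.5 and 48.8 CPM or 3.36-fold (2.96 to 3.84). Xpc, the member on that list, recognises helix distortions, and had 30.1, 28.0 and 28.8 CPM in the 3 libraries. Cdkn1a was 179-fold higher in IR, while 28 of the 31 members past the floor lay within 1.5-fold.

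In cycling-marked T cells more members were higher in IR than in control. They were 7 of 31, namely Chek1, Brca1, Brca2, Fancd2, Fanca, Lig1 and Ung, and none was lower, beside 10.7% and 6.49% of all genes. Chek1 was at 12.1 and 36.3 CPM, with the interval of its ratio from 2.16 to 4.28. Ung was 2.58-fold higher (1.93 to 3.50), Brca1 2.21-fold (1.64 to 3.01) and Lig1 2.12-fold (1.84 to 2.44). Fancd2 was 2.38-fold higher on 74 against 14 UMIs, with the interval from 1.34 to 4.57, and Fanca 1.74-fold (1.14 to 2.74). Brca2 was 1.95-fold higher (1.54 to 2.50). H2ax was at 133 and 141 CPM, a ratio of 1.06 (0.951 to 1.19). The end joining members lay between 0.861-fold and 1.05-fold where they passed the floor. The median log2 ratio of the members was 0.25, beside 0.05 over all genes.

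The markers of division differed between the same cells. The 13 cycling markers summed to 1919 CPM in control and 3079 CPM in IR. This list includes Mki67 and Top2a, whose UMIs define the marked cells, so the sum is not independent of the gate. Tyms is not part of the gate. Top2a was at 374 and 654 CPM, Mki67 at 514 and 583 CPM and Tyms at 61.8 and 122 CPM. Their part in the members' ratios was not tested. Without mixed or large cells, 9 of 26 members were higher, beside 14.2% of all genes, and the median was 0.48. The cycling markers then summed to 725 CPM in control and 3057 CPM in IR. H2ax was 4.03-fold higher on 698 against 46 UMIs, Lig1 4.84-fold and Brca2 8.72-fold, the last on 7 control UMIs. The direction of H2ax also differed between T cell subsets. Mixed and large cells were kept there, so their part and that of the subset cannot be told apart. Among marked cells with Cd4 and without Cd8 UMIs it was 1.56-fold higher in IR, and among those with Cd8 and without Cd4 UMIs it was 1.75-fold lower, on 114 and 95 cells. Chek1, Brca1 and Lig1 were at least 2-fold higher in both subsets. Requiring at least 2 UMIs of Mki67 and Top2a gave 2.68-fold for Chek1, 2.38-fold for Ung and 2.04-fold for both Brca1 and Lig1.

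Between IR_HSO and IR, the marked T cells had lower levels of members from several pathways. Of 32 members 8 were lower and none was higher, beside 8.51% and 10.4% of all genes. Lig1 was 2.23-fold lower (1.97 to 2.53), Chek1 2.06-fold (1.61 to 2.66) and H2ax 1.88-fold (1.66 to 2.12). Chek2 was 2.76-fold lower on 23 against 100 UMIs, with the interval from 1.74 to 4.55. Palb2 was 1.81-fold lower (1.25 to 2.66), Ung 1.73-fold (1.39 to 2.16) and Fancd2 1.62-fold (1.04 to 2.58). Apex1, the endonuclease that cuts abasic sites, was at 39.4 and 26.2 CPM, 1.51-fold lower and at the edge of the call. The median log2 ratio was -0.30, and that of all genes was 0.01.

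Other members had nearly the same level in both libraries. Prkdc was at 32.7 and 33.3 CPM, Msh6 at 31.1 and 31.2 CPM, Rad23b at 75.8 and 78.6 CPM and Atr at 44.2 and 46.5 CPM. None of the 5 end joining members was past 1.5-fold. Brca1 was 1.41-fold (1.13 to 1.76), Brca2 1.29-fold (1.08 to 1.55) and Parp1 1.44-fold (1.25 to 1.66) lower, short of the call, though none of these intervals reached 1. The comparison with control shares the IR library with this one, so the levels are best read side by side. In marked T cells Lig1 was at 71.6, 151 and 67.9 CPM and Ung at 16.2, 41.7 and 24.1 CPM. H2ax was at 133, 141 and 75.2 CPM in all marked cells. Its control level was 37.1 CPM once mixed or large cells were left out, and IR and IR_HSO were then at 149 and 76.9 CPM.

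Division markers were also lower in the marked T cells of IR_HSO. The 13 cycling markers, which include the gate genes Mki67 and Top2a, summed to 3079 CPM in IR and 1697 CPM in IR_HSO. Top2a was at 654 and 328 CPM, Mki67 at 583 and 388 CPM, and Tyms at 122 and 62.9 CPM. The share of T cells that were cycling-marked was 9.06%, 13.7% and 10.5%, and 2.96%, 6.09% and 3.69% after each cell was thinned to 1000 UMIs. Where a marked cell needed at least 2 UMIs of Mki67 and Top2a, 5 of 31 members were lower, beside 6.53% of all genes. These were Chek2 at 2.69-fold, Lig1 at 1.70-fold, Palb2 at 1.68-fold, Mdc1 at 1.71-fold, and Chek1, which was at 35.1 CPM in IR_HSO and 52.7 CPM in IR and so at the edge of the call. H2ax was then 1.43-fold, Ung 1.39-fold, Apex1 1.22-fold and Fancd2 1.19-fold lower, all short of the call, and Brca1 and Brca2 were each 1.08-fold lower. The part of division in the differences that remain was not tested.

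The counts differed by T cell subset, and this difference was not tested. Among marked cells with Cd4 and without Cd8 UMIs, 360 in IR_HSO and 495 in IR, 10 of 29 members were lower, beside 11.7% of all genes. H2ax was 2.26-fold, Lig1 2.84-fold and Chek1 3.32-fold lower there. Among the 67 and 114 cells with Cd8 and without Cd4 UMIs, 14 members passed the floor and Lig1 and Apex1 were lower, beside 11.6% of all genes. H2ax had 95.4 and 102 CPM in these cells. Without mixed or large cells 11 of 31 members were lower and Lig3 was higher, beside 9.26% and 11.5% of all genes, with H2ax at 1.94-fold and Lig1 at 2.32-fold lower.

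In unmarked T cells only Chek1 and Lig1 were lower in IR_HSO than in IR, and Fancd2 was higher, of 32 members past the floor. Of all genes 6.48% were lower and 11.6% higher. Chek1 was 2.27-fold lower (1.67 to 3.14) and Lig1 1.75-fold (1.54 to 1.99). Fancd2 was 1.74-fold higher on 28 against 18 UMIs, and its interval of 0.926 to 3.33 included no difference. Both Chek1 and Lig1 were lower without mixed or large cells too, at 2.48-fold and 1.84-fold, and Fancd2 was then under the floor. The median was 0.05, beside 0.07 over all genes. Relative to control, Chek1 and Lig1 were at 1.33, 5.21 and 2.29 CPM and at 12.8, 25.1 and 14.3 CPM. The cycling markers other than Mki67 and Top2a summed to 147, 227 and 166 CPM in the same cells. Their part in these ratios was not tested.

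**Figure D3:**
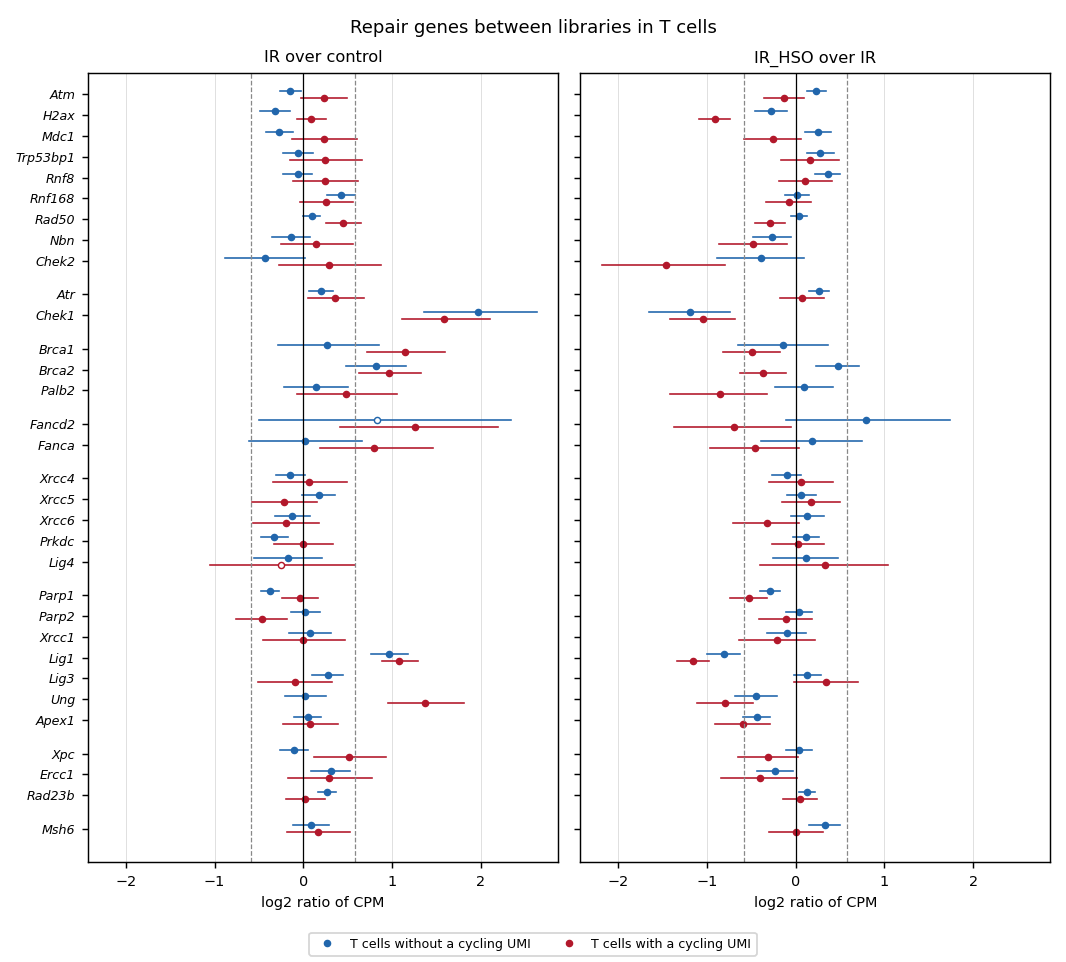
log2 ratio of the level of each gene in IR over control (left) and IR_HSO over IR (right), in unmarked (blue) and cycling-marked (red) T cells, with exact conditional 95% intervals. Open circles are under the floor and dashed lines mark 1.5-fold. The IR library enters both panels. Chek1 and Lig1 lie beyond the dashed lines in both sets of cells, right on the left panel and left on the right panel.

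Other genes of the same pathways were counted from a list of 93. In unmarked T cells 10 of 89 past the floor were higher in IR than in control and 2 were lower, beside 15.7% and 6.4% of all genes. Polk, a translesion polymerase, was among the higher ones, at 14.5 and 48.8 CPM. Usp28, a deubiquitinase, was 2.04-fold lower. In marked T cells 21 of 82 were higher and none lower, beside 10.7% and 6.49%. Clspn, which brings Chek1 to Atr, was at 52.1 and 114 CPM, and Rad54b, a helicase-like protein of recombination, 2.40-fold higher. Between IR_HSO and IR 17 of 88 were lower and 1 higher in marked T cells, beside 8.51% and 10.4%. Rad54b was 2.75-fold lower there and Rpa3, a subunit of the complex that coats single-stranded DNA, 2.48-fold lower. In unmarked T cells 5 of 91 were lower and 2 higher, beside 6.48% and 11.6%. Of these Dntt, which adds bases at receptor gene joins, was 2.97-fold lower, at 2.23 and 0.752 CPM.

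NK cells gave fewer UMIs, and transcripts of other cells were more abundant in their gates. In unmarked NK cells the exocrine pancreas markers summed to 0, 3588 and 6680 CPM, the erythroid ones to 3190, 2.14 and 1.03 CPM and the plasma cell ones to 151, 1741 and 1224 CPM. In marked NK cells the plasma cell markers summed to 108, 7606 and 1005 CPM. Their part in the NK results was not tested. Within IR, 4 of 17 members past the floor were higher in marked cells, H2ax, Brca2, Lig1 and Ung, and none was lower, beside 5.49% and 10.7% of all genes. Within IR_HSO, H2ax, Parp1 and Lig1 of 9 were higher and none lower, beside 6.34% and 6.36%. In control 1 member passed the floor, Parp1, and it was higher, beside 6.13% higher and 4.23% lower of all genes. Lig1 was at 31.5, 27.9 and 11.9 CPM in unmarked and at 35.9, 131 and 104 CPM in marked NK cells, the control value on 6 UMIs. H2ax was at 30.1, 24.3 and 20.6 CPM and at 65.8, 114 and 102 CPM. Without cells over 3 times the median UMI number 3 of 9 members were higher in marked cells of IR, H2ax, Parp2 and Lig1, beside 4.87% of all genes, and H2ax and Lig1 were under the floor in IR_HSO. In all NK cells the split of H2ax was 4.70-fold (3.55 to 6.24) in IR and 4.94-fold (3.47 to 7.01) in IR_HSO.

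In unmarked NK cells 19 members passed the floor between IR and control. Prkdc and Parp1 were lower in IR and none was higher, beside 6.72% and 6.87% of all genes, with a median of -0.18 for the members and -0.03 for all genes. Parp1 was at 96.0 and 52.2 CPM, 1.84-fold lower (1.47 to 2.29). Its level in the control B gate was 216 CPM, and 90 of the 309 control NK cells had a UMI of Cd79a or Cd79b. Among NK cells without such a UMI Parp1 was at 75.5 and 52.7 CPM, or 1.43-fold lower, short of the call. Of 15 members there Atr was higher and Rnf8 and Prkdc were lower, beside 6.94% and 5.20% of all genes. Prkdc was 1.53-fold lower (1.09 to 2.13) in all unmarked NK cells and 1.75-fold among those without a Cd79 UMI, on 40 control UMIs. Without cells over 3 times the median UMI number Prkdc was 1.49-fold lower, just short of the call, and Parp1 1.72-fold. No member passed the floor in marked NK cells between IR and control.

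Between IR_HSO and IR, Lig1 and Xrcc4 were lower in unmarked NK cells and none of 26 members was higher, beside 6.41% and 7.23% of all genes. Lig1 was 2.35-fold lower (1.66 to 3.38). Xrcc4, the scaffold of ligase IV, was at 30.1, 23.6 and 12.1 CPM and 1.95-fold lower (1.36 to 2.82) than in IR. Both stayed past the call among NK cells without a Cd79 UMI, at 2.37-fold and 1.88-fold. In marked NK cells Atr of 10 members was higher and none was lower, beside 9.26% and 6.37% of all genes. Atr was at 42.4 and 63.9 CPM, and the interval of its ratio, 0.934 to 2.42, included no difference. Among marked NK cells without a Cd79 UMI Atr was 1.37-fold higher, short of the call, and Lig1 and Ung of 11 members were lower, beside 10.6% of all genes.

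**Figure D4:**
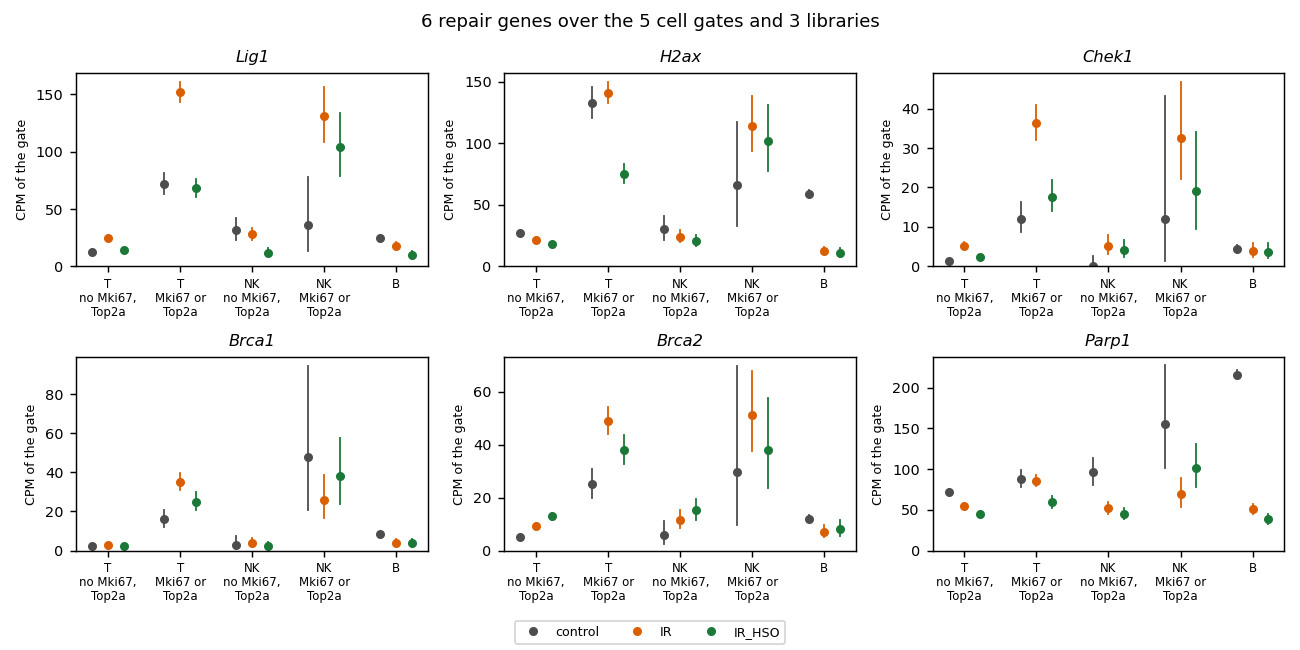
Level in CPM, on linear axes from 0, of Lig1, H2ax, Chek1, Brca1, Brca2 and Parp1 in each gate and library, with exact 95% Poisson intervals. Lig1 is highest in IR among both sets of T cells, and Parp1 is highest in the control B gate, where the B gates of IR and IR_HSO are mostly immunoglobulin.

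B cells of the control spleen had the highest Parp1 of all gates and libraries, at 216 CPM. H2ax was at 58.9 CPM there, and at 12.6 and 11.0 CPM in IR and IR_HSO. In all, 25 of 31 members were lower in IR than in control and none was higher, beside 76.6% and 5.96% of all genes, so most genes were lower in this gate. The largest folds were 4.69-fold for H2ax (3.68 to 6.05), 4.45-fold for Parp2 (3.39 to 5.97), 4.28-fold for Parp1 (3.80 to 4.85) and 3.98-fold for Chek2 (2.23 to 7.83). The smallest was 1.51-fold for Palb2. Lig4, Chek1, Rad23b, Lig1, Xrcc6 and Lig3 lay within 1.5-fold. The count depended on the total that levels are scaled to. Without immunoglobulin and other very abundant genes in the total, 8 members were lower and 1 was higher of 26, beside 21.1% and 18.7% of all genes. Centred on the median of all genes, 7 were lower and 4 higher of 31, beside 17.6% and 21.6%. The median log2 ratio was -1.35 for the members and -1.12 for all genes. Of the B gate cells, 61 of 4719, 273 of 444 and 237 of 321 had at least 10% immunoglobulin UMIs, and 5 plasma cell markers summed to 2150, 34939 and 30191 CPM. B cell markers, which include the gate genes Cd79a and Cd79b, summed to 7498, 1212 and 816 CPM, lowest in the irradiated libraries.

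A narrower B gate asked for a UMI of Ms4a1 and under 10% immunoglobulin UMIs, and held 4180, 120 and 41 cells. Between IR and control 5 members passed the floor there, and their median log2 ratio was 0.16, in place of -1.35. Rad50 was 1.04-fold (0.727 to 1.44), Rad23b 1.12-fold (0.797 to 1.53), Atm 1.12-fold (0.705 to 1.69) and Atr 1.29-fold (0.821 to 1.93). Parp1 was 1.42-fold lower (1.13 to 1.80), on 76 against 4623 UMIs. In the whole B gate Lig1 was the 1 member of 25 called between IR_HSO and IR, 1.82-fold lower (1.24 to 2.71), and none was higher, beside 8.3% and 6.59% of all genes. In the narrower gate Lig1 had 5 and 12 UMIs in IR_HSO and IR, and was under the floor.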

How the data were processed

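Per the file headers, the deposited matrices came from Cell Ranger 7.0.1 and hold unnormalised UMI counts. The build named by the submitters' processing notes is GRCm39. The annotation and alignment settings are not given in the sources used here. The members, the gene lists and the gates were chosen with earlier results of these data known.

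The files were read with Python 3.11.15, numpy 2.4.6, scipy 1.17.1 and pandas 2.3.3. UMIs were summed per library and gate, and the gates hold between 167258 and 28188180 UMIs. CPM, exact Poisson intervals of levels and exact conditional (Clopper-Pearson) intervals of ratios were computed at 95% and checked on simulated counts. Named with values were members past 1.5-fold, the 5 with the highest level over T cells, and those with the largest and smallest cycling split. Other repair genes were named past 2-fold, except Xpc as a member. A count of 0 was set against 3 UMIs. Doublets were not removed in the main values, and cells with Cd3 and Cd79 UMIs were left out in an alternative. Other scalings, floors, folds, cell filters, cycling rules and T cell subsets were also tried. A narrower B gate and NK cells without Cd79 UMIs were added after seeing the data. Promoters came from RefSeq (GRCm38.p6), whose coordinates were not joined to the files.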

Additional observations from a re-analysis of the deposited data

Results flagged for a closer look

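In 6 cases a member was called higher in 1 gate and lower in another under the same comparison. None of these differences was tested, since each gate has 1 library per group. Between IR and control, 5 set T cells against the B gate, where immunoglobulin took 53.8% of the UMIs in IR and 4.26% in control. The 2 gates are not separate cells. Of the B gate, 138 of 444 cells in IR and 541 of 4719 in control were also in the T gate. The difference in log2 ratio was 2.24 for Brca1, 2.78 for Fanca, 2.45 for Ung and 1.71 for Brca2 in cycling-marked T cells, and 1.55 for Brca2 in unmarked T cells. Brca1, Fanca and Ung had 2, 2 and 4 UMIs in the narrower B gate of IR and Brca2 had 8, all under the floor. Between IR_HSO and IR, Fancd2 differed by 1.49 between unmarked T cells, where it was higher on 28 against 18 UMIs, and marked T cells, where it was lower on 29 against 74 UMIs.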

How the results depend on the processing

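Of 162 medians recomputed under other settings, 146 stayed inside the 95% interval of the main median, 15 moved outside it and 1 reversed. A reversal was counted only where the main median was past 1.5-fold, so smaller medians that changed sign are among the 146 and the 15. Between IR and control the unmarked T cell median went from 0.02 to -0.06 without immunoglobulin and other abundant genes in the total. The interval came from the ranked ratios of the members, or from their summed UMIs where few passed. The former follows the spread between genes, and neither covers the spread between mice. The cause of the changes was not tested. In B cells, IR against control, the median of -1.35 became -0.36 without immunoglobulin and other abundant genes in the total, -0.23 after centring on all genes, -1.79 without mixed or large cells, and 0.16 in the narrower gate. Between IR_HSO and IR the B cell median was 0.21 without mixed or large cells, on 6 members. Between IR and control the medians in T cells with Cd8 and without Cd4 UMIs were 0.18 unmarked and 0.074 marked, and the marked median without mixed or large cells was 0.48. Between IR_HSO and IR the marked median with Cd8 was 0.012. For the split in IR_HSO T cells the median was -0.0073 with Cd4 and 0.74 with Cd8. The control T cell split had a median of 0.66 when Mki67 and Top2a were looked for after thinning. The NK split in IR had a median of 0.50 without cells over 3 times the median UMI number and 1.41 after thinning. In IR_HSO it was 3.45 after thinning and 3.32 with at least 2 cycling UMIs, each on 3 members.

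Of 75 counts of calls under other scalings, floors and folds, 23 moved by over 1.5 times. At 2-fold the count fell from 3 to 1 in unmarked T cells in both comparisons, from 8 to 3 in marked T cells between IR_HSO and IR, from 2 to 0 and from 2 to 1 in unmarked NK cells, and from 1 to 0 in marked NK cells, B cells and the control NK split. With a floor of 10 the counts were 4 in unmarked NK cells in both comparisons, 6 in marked NK cells, 3 in B cells between IR_HSO and IR, and 12 and 8 for the NK split in IR and IR_HSO. With no floor they were 6, 12 and 3 in unmarked NK, marked NK and B cells, and 20, 14 and 17 for the NK split. In B cells between IR and control the 25 calls became 9 and 11 under the other scalings, and centring left none in marked NK cells. Of 102 counts under cell filters, cycling rules, subsets and an added CPM, 14 moved by over 1.5 times. The control T cell split went from 10 to 3 without mixed or large cells and to 3 with Cd4. The IR_HSO split went from 7 to 13 with at least 2 cycling UMIs. In marked T cells the count went from 7 to 11 with Cd4 between IR and control, and from 8 to 5 with at least 2 cycling UMIs and to 2 with Cd8 between IR_HSO and IR. In the narrower B gate it went from 25 and 1 to 0. The other 6 lay in the NK gates, where the main counts were 1 to 4. No paired analysis was possible because each group has 1 library, and for the same reason no library could be left out. Depth limits the marked NK cells of control most, where 3 UMIs are 17.9 CPM.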
